A study of Mus musculus with 12 samples.

Results

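The genes followed here are 7 genes of cholesterol synthesis, Hmgcs1, Idi1, Fdft1, Sqle, Lss, Cyp51 and Srebf2, measured in the cerebellum of a mouse model of spinocerebellar ataxia type 1 (SCA1). They were picked by name and found in the count tables by Ensembl identifier, which was ENSMUSG00000093930 for Hmgcs1, ENSMUSG00000058258 for Idi1, ENSMUSG00000021273 for Fdft1, ENSMUSG00000022351 for Sqle, ENSMUSG00000033105 for Lss, ENSMUSG00000001467 for Cyp51 and ENSMUSG00000022463 for Srebf2. All 7 were present among the 55401 genes of the tables, and all 7 were among the 19378 genes that passed the filter on low counts and were tested.

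RNA was sequenced from 12 samples labelled cerebellum, 1 library per mouse and 4 mice per group. The first group, called WT DMSO, held wild-type mice injected with dimethyl sulfoxide (DMSO). The second, Het DMSO, held mice with 1 knock-in allele of Atxn1 that codes for an expanded glutamine tract (Atxn1 154Q/2Q), also injected with DMSO. The third, Het Hit 2, held mice of the same knock-in genotype given a compound known only by the code name Hit 2, dissolved in DMSO at 25 mg/ml. In all 3 groups the injections were intraperitoneal, started at 18 weeks of age, and ran for 5 days, then 2 days of rest, then 5 days more, with DMSO kept under 4 ml/kg. Tissue was collected at 20 weeks. All mice therefore received DMSO, both Het groups carried the knock-in allele, and no group of wild-type mice given Hit 2 was analysed here. The labels give no sex. Mice are named below by their animal numbers, in the order 413, 425, 426 and 431 for WT DMSO, then 409, 411, 420 and 429 for Het DMSO, then 410, 421, 422 and 430 for Het Hit 2, and series of values follow that order.

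Cholesterol is made from acetyl-CoA through mevalonate, farnesyl pyrophosphate, squalene and lanosterol. Hmgcs1 (HMG-CoA synthase) makes the precursor of mevalonate, Idi1 isomerises isopentenyl pyrophosphate, Fdft1 (squalene synthase) joins farnesyl units into squalene, Sqle epoxidises squalene, Lss (lanosterol synthase) closes the rings, and Cyp51 removes a methyl group from lanosterol. SREBP2 sits in the endoplasmic reticulum with its escort Scap while sterols are plentiful. When sterols run low it is cut by proteases in the Golgi and its released part enters the nucleus, where it activates these genes and its own. The adult brain makes nearly all of its own cholesterol, because lipoproteins of the blood do not cross the blood-brain barrier, and much of that cholesterol lies in myelin, the product of oligodendrocytes.

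The main result on these genes is that none of the 7 passed the threshold, an edgeR quasi-likelihood test with a Benjamini-Hochberg adjusted p under 0.05 over all 19378 genes, in any of the 3 comparisons between groups. The share of all genes that passed was 0.00516% (1 gene) when Het DMSO was set against WT DMSO, 0% between the Het groups and 0.00516% (1 gene) between Het Hit 2 and WT DMSO. In the comparison with no call, 301 genes had an unadjusted p under 0.05 in edgeR, and DESeq2 also called 0 genes. The values farthest from the rest came from single libraries. Library 411 of Het DMSO was the highest of the 12 for 5 of the 7 genes, and library 409 of the same group was the highest for the other 2.

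Libraries 409, 410 and 411 stood apart from the rest. Across the 12 libraries, 15855751 to 45265719 reads were assigned to genes. The labelled tissue was checked with 7 lists of marker genes, each summarised in a library by averaging, over its genes, log2 CPM (reads scaled to a common library size, prior count 2) after subtraction of the gene's median in the 12 libraries. In library 411 the granule cell list scored -6.74 and the Purkinje cell list -4.03, against -0.58 to 0.21 and -0.88 to 0.37 in the other 11 libraries, and the summed level of the granule cell list was 84.9 CPM against at least 3552 CPM elsewhere. The 8 granule cell and 8 Purkinje cell markers all had reads in library 411, with Gabra6, a granule cell receptor subunit, at 0.606 CPM and Pcp2, a Purkinje cell gene, at 0.555 CPM. The levels of both lists thus go against the label of library 411 as cerebellum, and whether it came from that tissue was not tested. Every value of Het DMSO below includes the library labelled Het DMSO 411 unless stated. Its oligodendrocyte list was the highest of the 12 at 1.60, and library 410 of Het Hit 2 was next at 1.24. Library 409 differed in another way, with 0.0795% of gene reads from mitochondrial genes against 1.85% to 2.81% in the other libraries. Libraries 409 and 411 both had fewer reads without a gene, 45.4% and 44.7%, against 51.0% to 54.6% in the others. Both also had more reads aligned to several places, 7.01% and 5.91%, against 4.08% to 4.89%. Xist reads reached 1393 and 1464 CPM in WT DMSO libraries 425 and 426 and at most 0.290 CPM in the other 10, so high Xist was seen in no Het library. Because RNA came from whole tissue, fewer cells of a type and less RNA per cell cannot be told apart.

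**Figure D1:**
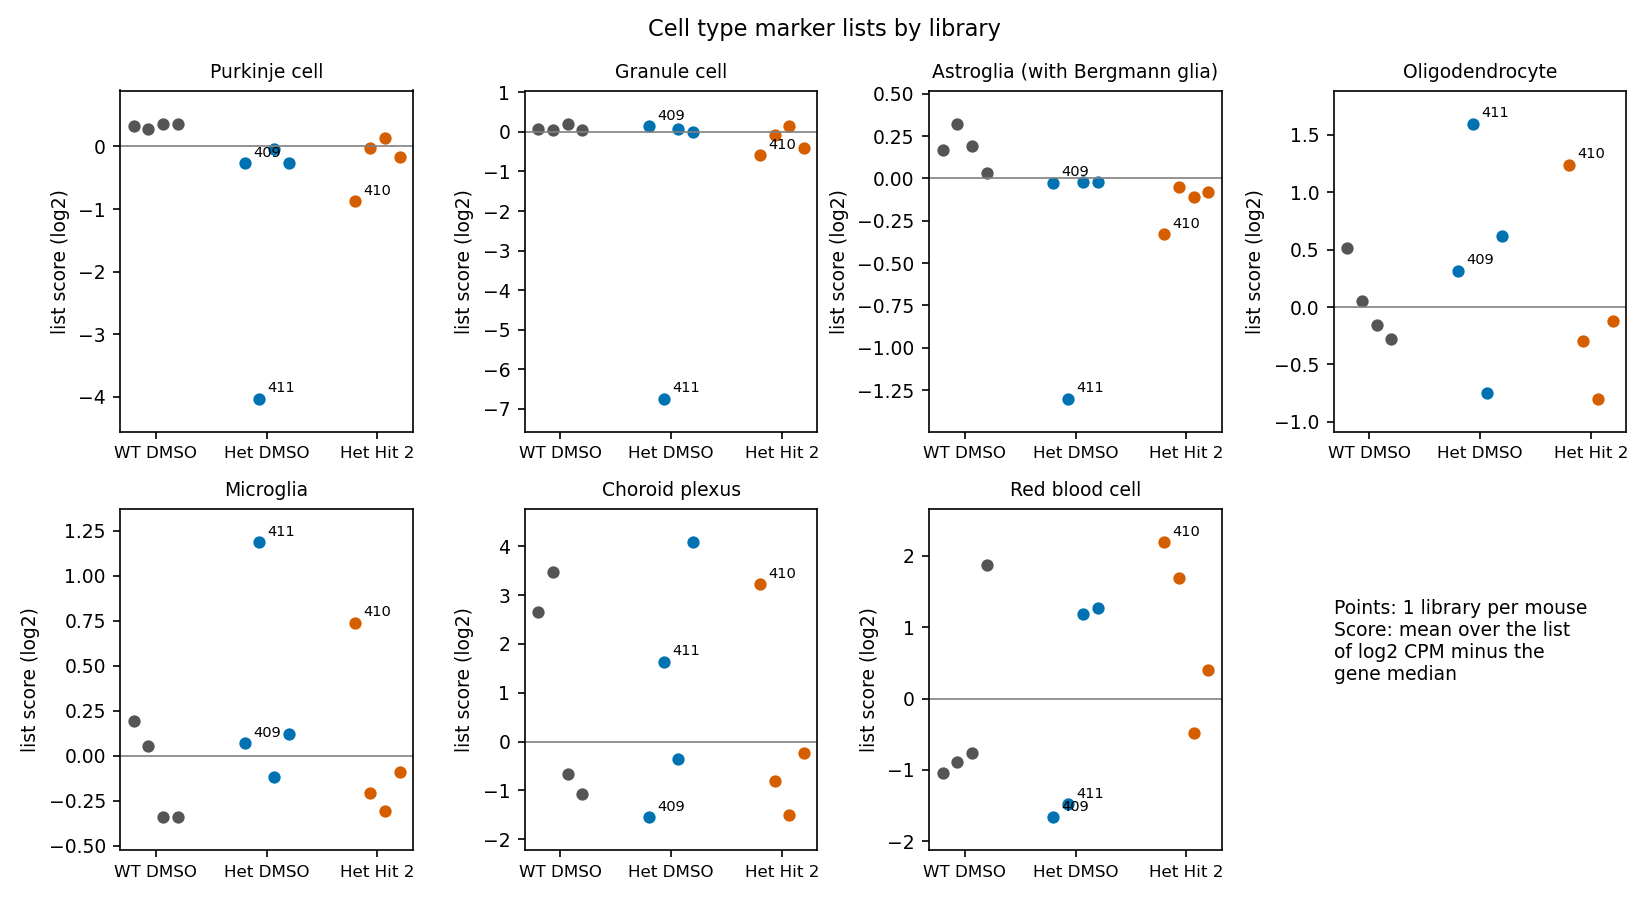
Scores of 7 cell type marker lists in each of the 12 libraries. Each panel is 1 list, the x axis gives the group, the y axis the list score in log2 units, and each point is 1 mouse, with animals 409, 410 and 411 numbered. Library 411 lies at -6.74 on the granule cell panel and at 1.60 on the oligodendrocyte panel.

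The sequence just upstream of these genes is shown because the members share regulation by SREBP2, which binds short elements next to sites for the factors NF-Y and Sp1. RefSeq promoter windows (GRCm38.p6, 250 bases before to 50 after the start) were found for 5 of the 7, namely Hmgcs1, Idi1, Lss, Cyp51 and Srebf2. The 150 bases before the start are printed on the strand of the gene, 5′ to 3′. They cover chr13:119690201-119690350 on the plus strand for Hmgcs1, chr13:8885456-8885605 on the plus strand for Idi1, chr10:76531455-76531604 on the plus strand for Lss, chr5:4104698-4104847 on the minus strand for Cyp51 and chr15:82147119-82147268 on the plus strand for Srebf2. Capitals mark matches, on either strand, to a sterol regulatory element TCACNCCAC, to the NF-Y box CCAAT, which reads ATTGG on the other strand, and to the GC box GGGCGG, which reads CCGCCC on the other strand.
Hmgcs1: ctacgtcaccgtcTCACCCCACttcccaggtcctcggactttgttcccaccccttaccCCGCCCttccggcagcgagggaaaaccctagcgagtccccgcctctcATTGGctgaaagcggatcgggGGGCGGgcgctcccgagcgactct
Idi1: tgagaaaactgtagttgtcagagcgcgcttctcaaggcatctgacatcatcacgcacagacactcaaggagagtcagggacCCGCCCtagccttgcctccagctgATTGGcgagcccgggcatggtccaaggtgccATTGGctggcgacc
Lss: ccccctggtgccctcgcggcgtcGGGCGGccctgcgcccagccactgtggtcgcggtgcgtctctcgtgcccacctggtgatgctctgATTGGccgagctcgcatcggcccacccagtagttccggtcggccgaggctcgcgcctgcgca
Cyp51: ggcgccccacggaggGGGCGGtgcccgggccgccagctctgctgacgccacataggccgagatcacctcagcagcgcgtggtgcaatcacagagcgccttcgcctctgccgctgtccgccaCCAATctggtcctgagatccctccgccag
Srebf2: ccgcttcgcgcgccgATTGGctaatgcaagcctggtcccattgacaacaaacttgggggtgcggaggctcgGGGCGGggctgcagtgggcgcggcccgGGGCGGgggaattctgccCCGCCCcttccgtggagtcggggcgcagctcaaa

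Within the whole 300-base windows, all 5 genes held the NF-Y box and all 5 held the GC box. Of all 32851 RefSeq windows, 37.4% held the NF-Y box and 35.7% the GC box. Over the 18 windows of 15 synthesis genes that had one, 14 held the NF-Y box and 15 the GC box. The element TCACNCCAC was found in 1 of the 5 windows, that of Hmgcs1, where it begins 137 bases before the start, and in 1.24% of all windows. These matches describe letters, and no binding was measured. No 2 of the 3 motifs overlapped in the stretches printed.

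Levels were compared between genes per length, as RPKM, which divides CPM by the length of merged exons in kilobases. In WT DMSO mice Srebf2 was the most abundant at 19.7 ± 2.26 RPKM (SD, n = 4), followed by Hmgcs1 at 14.2 ± 1.99. Cyp51 came next at 7.0 ± 0.59 and Fdft1 at 6.08 ± 0.69, then Lss at 4.57 ± 0.14, Sqle at 3.40 ± 0.70 and Idi1 at 1.67 ± 0.24. Only Cyp51 and Fdft1, as neighbours in this order, had ranges that overlapped over the 4 WT DMSO libraries. The order of the means in Het Hit 2 was the same, and in Het DMSO Fdft1 (8.05 ± 4.32) and Cyp51 (7.90 ± 3.23) changed places. Parts of the longest transcripts of 5 members match transcripts of other genes at 97% identity or more. These parts made up 54.7% for Fdft1 (Ctsb and Gm6781), 33.3% for Idi1 (3 other genes), 16.2% for Hmgcs1 (Gm48342), 4.22% for Cyp51 (Akap9) and 3.73% for Lss (an antisense gene). Ctsb, Akap9 and the antisense gene of Lss overlap these members on the opposite strand of the same locus, where reads are told apart by strand. The copies elsewhere make the levels of Fdft1, Idi1 and Hmgcs1 less certain, since reads that align to several places were not counted.

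**Figure D2:**
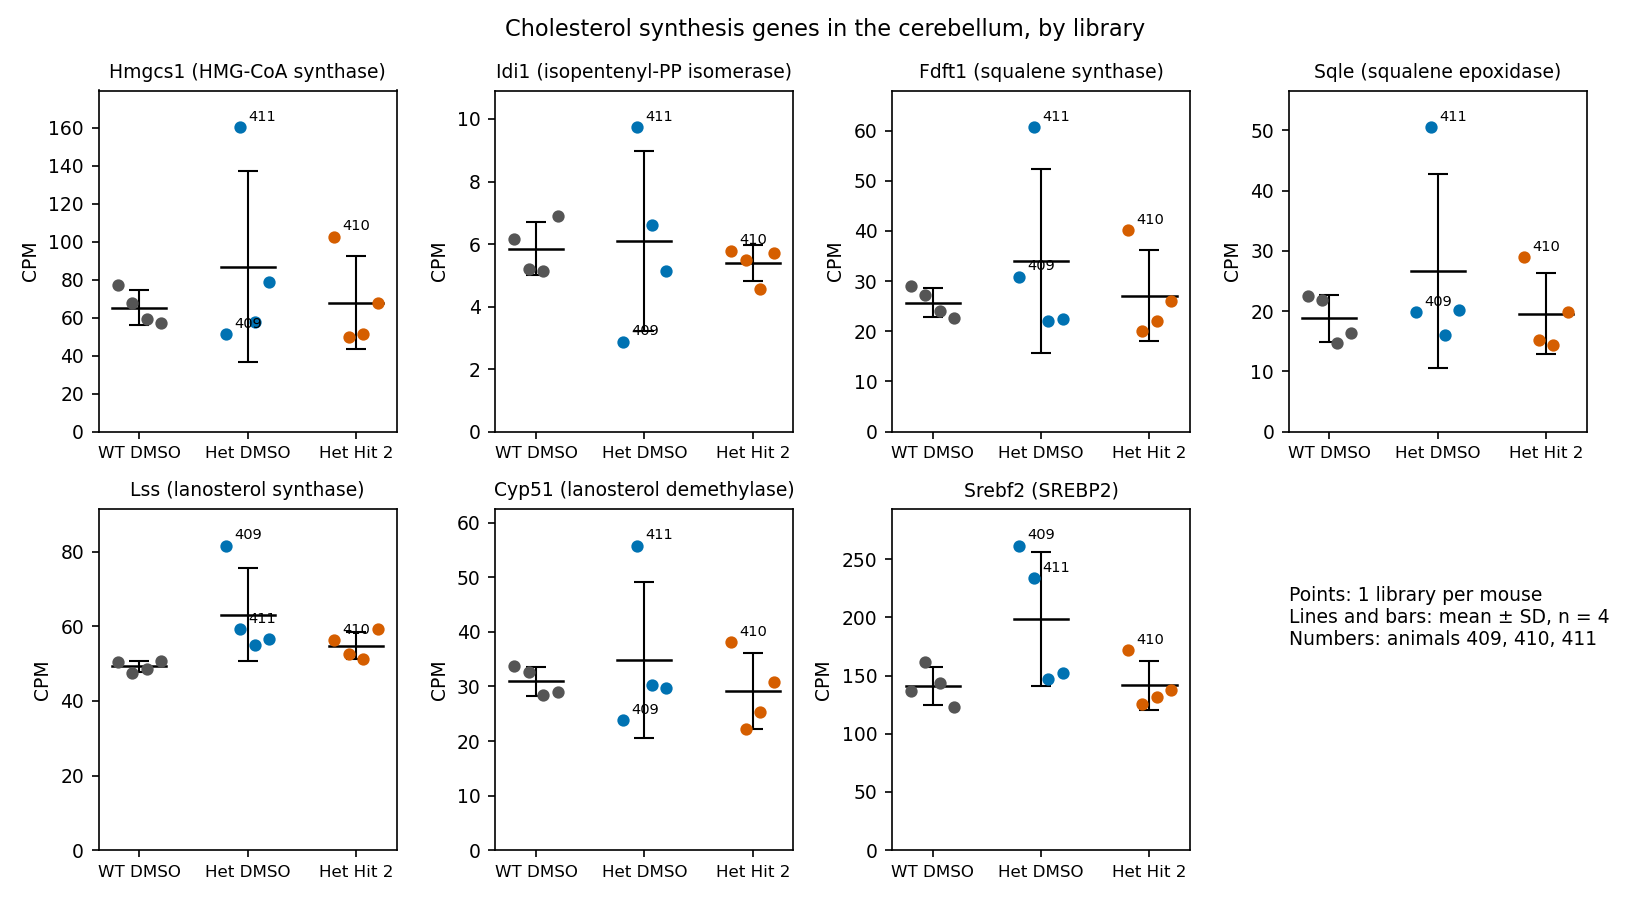
CPM of the 7 genes in each library. The x axis gives the group and the y axis CPM from 0, each point is 1 mouse, and lines with bars are the group mean and SD (n = 4). In Het DMSO, animal 411 lies apart for Hmgcs1 (160 CPM), Fdft1, Sqle and Cyp51, and animal 409 for Lss (81.7 CPM).

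Hmgcs1 read 77.1, 67.6, 59.2 and 57.0 CPM in WT DMSO. In Het DMSO it read 51.1, 160, 57.6 and 78.6 CPM, and in Het Hit 2 103, 49.7, 51.3 and 67.9 CPM. The groups overlapped, with libraries 411 and 410 the highest of their groups and of all 12. The fitted log2 fold change was 0.41 when Het DMSO was set against WT DMSO (SE 0.34, unadjusted p = 0.250, adjusted p = 0.652), -0.36 between the Het groups, Het Hit 2 against Het DMSO (SE 0.34, adjusted p = 0.898), and 0.057 for Het Hit 2 against WT DMSO (SE 0.34, adjusted p = 0.9999). Without library 411 the first of these values was -0.052 and the second 0.094, and without libraries 409 and 411 together they were 0.056 and -0.014.

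Idi1 was the lowest of the 7 in level. It read 6.17, 5.21, 5.13 and 6.89 CPM in WT DMSO, 2.88, 9.74, 6.60 and 5.13 CPM in Het DMSO, and 5.79, 5.49, 4.58 and 5.72 CPM in Het Hit 2. Its lowest and highest libraries, 409 and 411, were both in Het DMSO, and the groups overlapped. The log2 fold changes were 0.054 (SE 0.30) when Het DMSO was set against WT DMSO, -0.17 (SE 0.30) between the Het groups and -0.12 (SE 0.30) for Het Hit 2 against WT DMSO, with adjusted p of 0.950, 0.905 and 0.9999. Without library 411 the first was -0.27 and the second 0.14.

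Fdft1 and Sqle make squalene and its epoxide. Fdft1 read 29.0, 27.2, 24.1 and 22.6 CPM in WT DMSO, 30.9, 60.7, 22.1 and 22.4 CPM in Het DMSO, and 40.2, 20.1, 22.1 and 26.1 CPM in Het Hit 2. Sqle read 22.6, 21.8, 14.8 and 16.3 CPM in WT DMSO, 19.8, 50.5, 16.1 and 20.2 CPM in Het DMSO, and 29.0, 15.2, 14.3 and 19.8 CPM in Het Hit 2. For each gene the groups overlapped, library 411 was the highest and library 410 the second highest. For Fdft1 the log2 fold changes were 0.40 (SE 0.32), -0.33 (SE 0.32) and 0.075 (SE 0.32), taking first Het DMSO against WT DMSO, then Het Hit 2 against Het DMSO, then Het Hit 2 against WT DMSO. For Sqle they were 0.50 (SE 0.35), -0.44 (SE 0.35) and 0.054 (SE 0.35) in the same order. The smallest adjusted p among these 6 values was 0.630. Without library 411, the Het DMSO against WT DMSO value was -0.012 for Fdft1 and 0.0052 for Sqle, and the Het Hit 2 against Het DMSO value was 0.071 for Fdft1 and 0.033 for Sqle.

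Lss had the narrowest spread relative to its mean in WT DMSO, Het DMSO and Het Hit 2, and it was the only member whose groups did not overlap. It read 50.4, 47.5, 48.5 and 50.6 CPM in WT DMSO, with a mean of 49.3 ± 1.50 (SD, n = 4). In Het DMSO it read 81.7, 59.3, 54.9 and 56.7 CPM, and in Het Hit 2 56.2, 52.5, 51.2 and 59.3 CPM. All 8 Het libraries lay above all 4 WT DMSO libraries, while the Het groups overlapped with each other. Against WT DMSO, the log2 fold change was 0.36 in Het DMSO (SE 0.13, 95% interval 0.077 to 0.64, unadjusted p = 0.0168, adjusted p = 0.616). The exact permutation p, two-sided, was 0.0286, which is the lower limit with 70 assignments. For Het Hit 2 the value against WT DMSO was 0.15 (SE 0.13, unadjusted p = 0.257, adjusted p = 0.9999, exact permutation p = 0.0286). The value for Het Hit 2 against Het DMSO was -0.21 (SE 0.13, adjusted p = 0.898). These comparisons share groups, so they are not separate evidence. Members with groups that do not overlap and are higher numbered 1 of 7 in Het DMSO against WT DMSO, beside 1.94% of all genes, and 1 of 7 in Het Hit 2 against WT DMSO, beside 2.90% of all genes. No member was lower without overlap in these comparisons, beside 2.45% and 3.42% of all genes, and none separated the Het groups, where 0.635% of all genes were higher and 0.392% lower in Het Hit 2 without overlap.

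The value of Lss in Het DMSO depended on library 409. Without that library it was 0.20 above WT DMSO on the log2 scale, without library 411 it was 0.41, and without both it was 0.17 (SE 0.070, unadjusted p = 0.0324, adjusted p = 0.758). The difference of Het Hit 2 from WT DMSO was 0.14 (SE 0.057, unadjusted p = 0.0312, adjusted p = 0.446) when 409 and 411 were left out of the fit. With unscaled library totals or upper-quartile factors, the Lss levels of Het Hit 2 and WT DMSO overlapped. The summed astroglia and Purkinje cell lists also separated WT DMSO from the Het libraries. The sums of the granule cell, oligodendrocyte, microglia, choroid plexus and red blood cell lists overlapped between these groups. The astroglia list summed to 1419 to 1521 CPM in WT DMSO, 649 to 1268 CPM in Het DMSO and 942 to 1255 CPM in Het Hit 2. The Purkinje cell list summed to 6739 to 7006, 478 to 6093 and 2987 to 5907 CPM in the same order. Each of the 8 markers of each list had reads in every library. Single markers did not all separate the groups, since Itpr1 read at least 4405 CPM in WT DMSO and up to 4659 CPM in Het DMSO. Mean Aldh1l1, of the astroglia list, was 60.9 CPM in WT DMSO, 63.2 CPM in Het DMSO and 55.1 CPM in Het Hit 2. The part of these cell types in the Lss values was not tested.

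Cyp51 read 33.7, 32.6, 28.4 and 29.0 CPM in WT DMSO, 23.8, 55.8, 30.2 and 29.7 CPM in Het DMSO, and 38.2, 22.3, 25.4 and 30.8 CPM in Het Hit 2. Library 411 was again the highest and 410 the second highest, while library 409 was the lowest of Het DMSO, and the groups overlapped. The log2 fold changes were 0.17 (SE 0.25, adjusted p = 0.782) when Het DMSO was set against WT DMSO, -0.26 (SE 0.25, adjusted p = 0.898) between the Het groups and -0.086 (SE 0.25, adjusted p = 0.9999) for Het Hit 2 against WT DMSO. Without library 411 the first was -0.14 and the second 0.036.

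Srebf2, the regulator, read 137, 162, 144 and 123 CPM in WT DMSO and 262, 233, 147 and 152 CPM in Het DMSO. The Het Hit 2 libraries read 172, 125, 132 and 137 CPM. Libraries 409 and 411 lay above every other library, libraries 420 and 429 lay within the WT DMSO range, and the groups overlapped. The log2 fold change was 0.49 with Het DMSO against WT DMSO (SE 0.20, unadjusted p = 0.0273, adjusted p = 0.616, exact permutation p = 0.114) and -0.49 for Het Hit 2 against Het DMSO (SE 0.20, unadjusted p = 0.0278, adjusted p = 0.898, exact permutation p = 0.143). Between Het Hit 2 and WT DMSO it was 0.0020 (SE 0.19, 95% interval -0.42 to 0.43). Without libraries 409 and 411 these values were 0.072 (SE 0.13), -0.083 (SE 0.13) and -0.011 (SE 0.11). Het DMSO then had 2 libraries, whose spread the fit took from all groups.

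Across the 7 genes, all 7 log2 fold changes of Het DMSO against WT DMSO were above 0, with a median of 0.40, beside 55.8% of all genes above 0 and a median of 0.052. The sign of Idi1 turned with the measure, because its difference of mean log2 CPM was -0.049, and -0.062 to -0.043 over the 4 scalings, while that of the other 6 genes stayed above 0 under each. All 7 values of Het Hit 2 against Het DMSO were below 0, with a median of -0.33, beside 44.3% of all genes above 0 and a median of -0.043. The comparisons share the Het DMSO libraries, so these opposite signs are a single fact about that group. Without library 411, the values of Het Hit 2 against Het DMSO turned above 0 for Hmgcs1 (0.094), Idi1 (0.14), Fdft1 (0.071), Sqle (0.033) and Cyp51 (0.036). Those of Lss (-0.27) and Srebf2 (-0.44) stayed below 0. Against WT DMSO, 5 of the 7 values in Het Hit 2 were above 0, with a median of 0.054, beside 55.7% of all genes. An unadjusted p under 0.05 was found for Lss and Srebf2 in Het DMSO against WT DMSO, 2 of 7, both higher, beside 4.77% of all genes higher, 2.34% lower and 7.11% in either direction. Between the Het groups it was found for Srebf2, 1 of 7, lower in Het Hit 2, beside 0.800% of all genes lower, 0.753% higher and 1.55% in either direction. Between Het Hit 2 and WT DMSO it was found for none of the 7, beside 0.748% of all genes higher, 0.960% lower and 1.71% in either direction. Without libraries 409 and 411, 3 of the 7 values of Het DMSO against WT DMSO were above 0 (Hmgcs1 0.056, Lss 0.17 and Srebf2 0.072) and 4 were below, down to -0.22 for Fdft1.

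**Figure D3:**
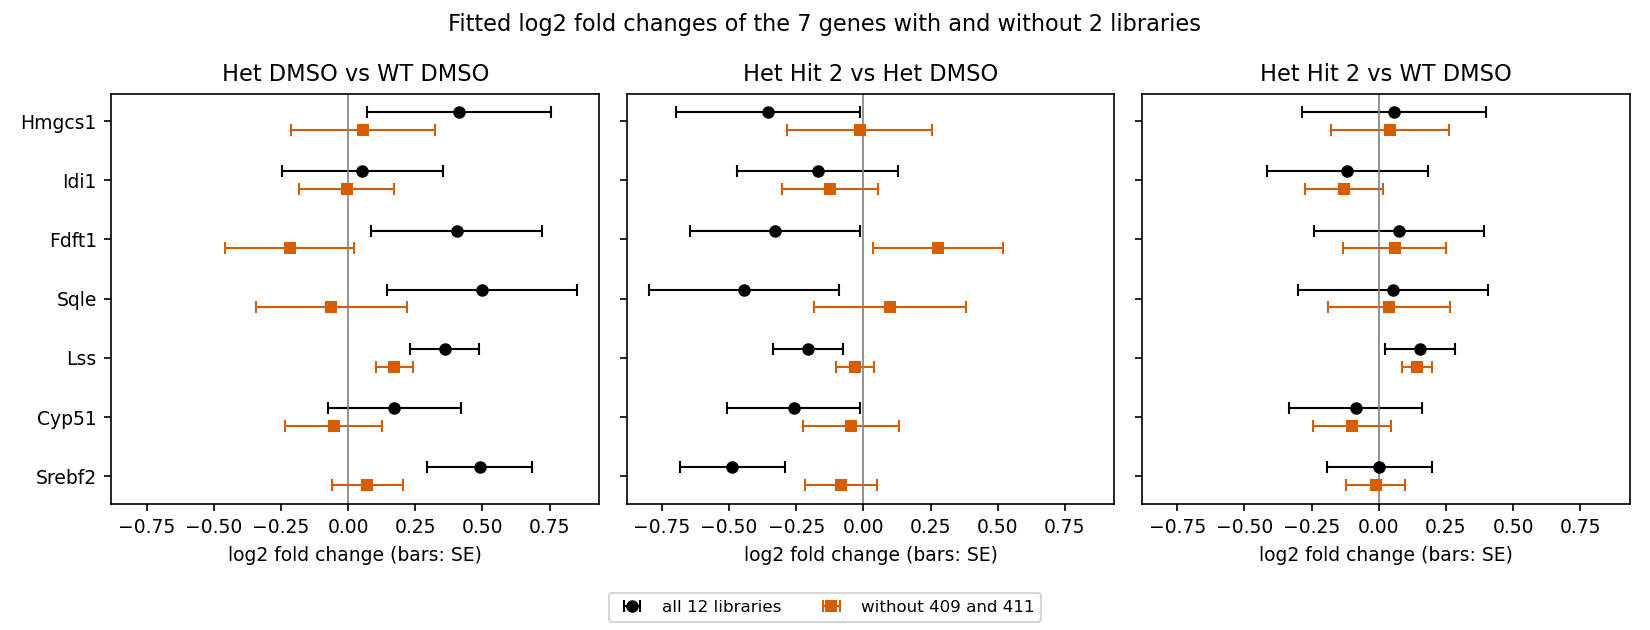
Log2 fold changes of the 7 genes in the 3 comparisons. The x axis is the fitted log2 fold change with its SE as bars, the y axis lists the genes, circles use all 12 libraries and squares leave out libraries 409 and 411. For Srebf2 in Het DMSO against WT DMSO the circle is at 0.49 and the square at 0.072.

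Over the 12 libraries the 6 pairs of Hmgcs1, Sqle, Fdft1 and Cyp51 had Pearson r of log2 CPM from 0.85 to 0.96, and the other 15 pairs ranged from -0.46 to 0.76. By rank the pairs were not set apart, with Spearman rho of 0.62 to 0.90 for the 6 pairs and -0.13 to 0.70 for the others. Without libraries 409 and 411 the 6 pairs had r from 0.86 to 0.94. Without libraries 410 and 411, which held the highest values of all 4 genes, r fell to between 0.31 for Hmgcs1 with Fdft1 and 0.84 for Hmgcs1 with Cyp51, so the closeness of these profiles depended on those libraries. Lss and Srebf2, the genes that were highest in library 409, had r of 0.76 with each other over 12 libraries, 0.14 without 409 and 411, and 0.82 without 410 and 411. The points of these correlations share libraries and depth, and they are given as descriptions.

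The score of the oligodendrocyte list was 0.51, 0.05, -0.15 and -0.28 in WT DMSO, 0.32, 1.60, -0.75 and 0.62 in Het DMSO, and 1.24, -0.30, -0.80 and -0.12 in Het Hit 2. Its 8 markers, all with reads in every library, summed to 1839 to 3448 CPM in WT DMSO, 1309 to 6734 CPM in Het DMSO and 1326 to 5597 CPM in Het Hit 2. The 2 libraries with the highest Hmgcs1, Fdft1, Sqle and Cyp51, 411 and 410, were also the 2 with the highest oligodendrocyte list, and likewise the 2 with the highest microglia list (1.19 and 0.74). The same 2 libraries were the lowest in the granule cell (-6.74 and -0.58), Purkinje cell (-4.03 and -0.88) and astroglia lists (-1.30 and -0.33). Libraries 429 and 413, next in the oligodendrocyte list, were also next in Hmgcs1, at 78.6 and 77.1 CPM. For Fdft1 library 429 was near the low end at 22.4 CPM, and library 409, with an oligodendrocyte score of 0.32, was near the low end for Cyp51 (23.8 CPM) and Hmgcs1 (51.1 CPM). The part of any of these cell types in the values of the 7 genes was not tested.

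By the rule set for likeness, 5 genes outside the sterol list had the highest Pearson r with the mean of the 7 standardised log2 CPM profiles over 12 libraries. They were Tkt, a transketolase of the pentose phosphate pathway (r = 0.98), Tnfrsf21, a death receptor (r = 0.98), Reep1 and Reep5, proteins that shape the endoplasmic reticulum (r = 0.98 and 0.97), and Iqsec3, an exchange factor for Arf GTPases (r = 0.97). Without libraries 409 and 411 their r ranged from 0.900 for Reep1 to 0.940 for Tkt. Each of the 5 had its highest value in library 411 and its next highest in library 410. For Tkt these were 144 and 108 CPM, against 69.4 to 89.3 CPM in the other 10 libraries. Of the members themselves, Sqle had the highest r with this mean, 0.98, and Lss the lowest, 0.35. Each member is part of the mean, which raises its own r. Ranked by this r among all genes tested, the members stood at 1 (Sqle), 28 (Fdft1), 335 (Hmgcs1), 663 (Cyp51), 2960 (Srebf2), 5032 (Idi1) and 6329 (Lss). Many genes outside the sterol list thus lay closer to the mean than most members did.

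The distance of a library from WT DMSO differed in kind between 409 and 411. In library 411 all 7 members lay above the WT DMSO median of log2 CPM, by 0.26 for Lss up to 1.42 for Sqle. In library 409, Srebf2 lay 0.90 and Lss 0.72 above that median, while Idi1 lay at -0.96, Cyp51 at -0.37 and Hmgcs1 at -0.31. In library 410 of Het Hit 2 the values ran from 0.030 for Idi1 to 0.70 for Hmgcs1. Over the 39 sterol pathway genes tested, the distance in library 409 had Pearson r of 0.68 with the G+C content of the longest transcript, and over 19346 genes r was 0.64. In library 411 the r was -0.17 over the 39 genes and 0.023 over all genes, and in library 410 it was -0.15 and 0.0019. The other libraries, WT DMSO included, lay between -0.48 and 0.42 over the 39 genes and between -0.22 and 0.14 over all genes. Among the members the order was looser. Idi1, the lowest member in library 409, has 41.9% G+C and Srebf2, the highest there, 57.9%, but Lss, next below Srebf2, has 48.7%, close to Sqle at 48.6% (0.072 from the median) and under Fdft1 at 51.8% (0.27). The part of base composition in the values of library 409 was not tested.

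**Figure D4:**
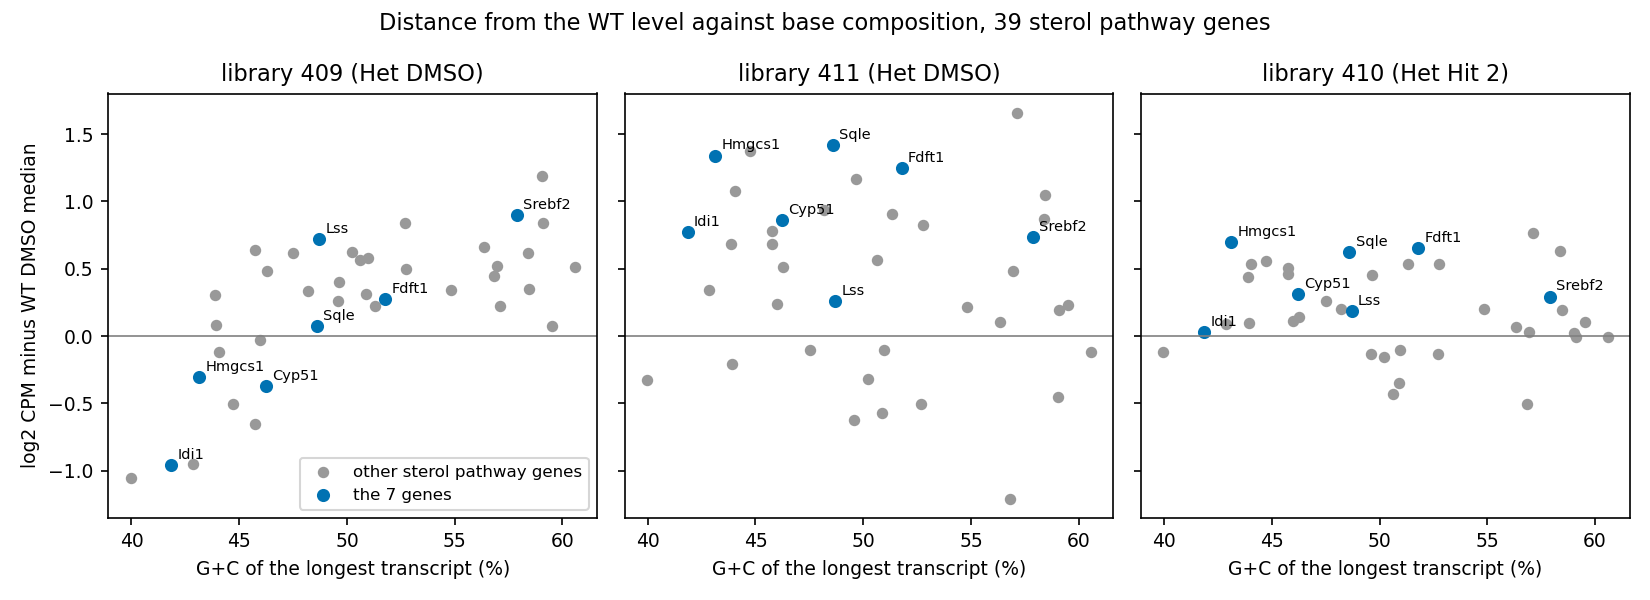
Log2 CPM minus the WT DMSO median against G+C content for 39 sterol pathway genes in libraries 409, 411 and 410. The x axis is the G+C percentage of the longest transcript, the y axis the distance in log2 units, blue points are the 7 members and grey points the other 32 genes. The points slope upward in library 409 (r = 0.68) and not in library 411 (r = -0.17).

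The rest of the pathway was read from a list of 40 genes, of which 39 were tested. The remaining gene was removed by the filter on low counts. None of the 39 passed the threshold in any of the 3 comparisons. In Het DMSO against WT DMSO, 33 of the 39 log2 fold changes were above 0, with a median of 0.31, beside 55.8% of all genes above 0. An unadjusted p under 0.05 was found for 4 of the 39, all higher, beside 4.77% of all genes higher and 7.11% in either direction, and Lss, Srebf2 and Cyp46a1 were among the 4, Cyp46a1 with an unadjusted p of 0.109 without library 411. In Het Hit 2 against Het DMSO, 4 of 39 were above 0, with a median of -0.21, beside 44.3% of all genes above 0. Here 2 of the 39 had an unadjusted p under 0.05, both lower, Srebf2 among them, beside 0.800% of all genes lower and 1.55% in either direction. In Het Hit 2 against WT DMSO, 27 of 39 were above 0, with a median of 0.047, beside 55.7% of all genes above 0. When libraries 409 and 411 were left out, the counts above 0 were 18, 26 and 24 of 39, with medians of -0.0053, 0.027 and 0.034, beside 48.8%, 52.2% and 52.5% of all genes above 0. Library 411 was the highest of the 12 for 21 of the 39 genes and library 409 for 16, beside 27.5% and 28.3% of all genes tested.

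**Figure D5:**
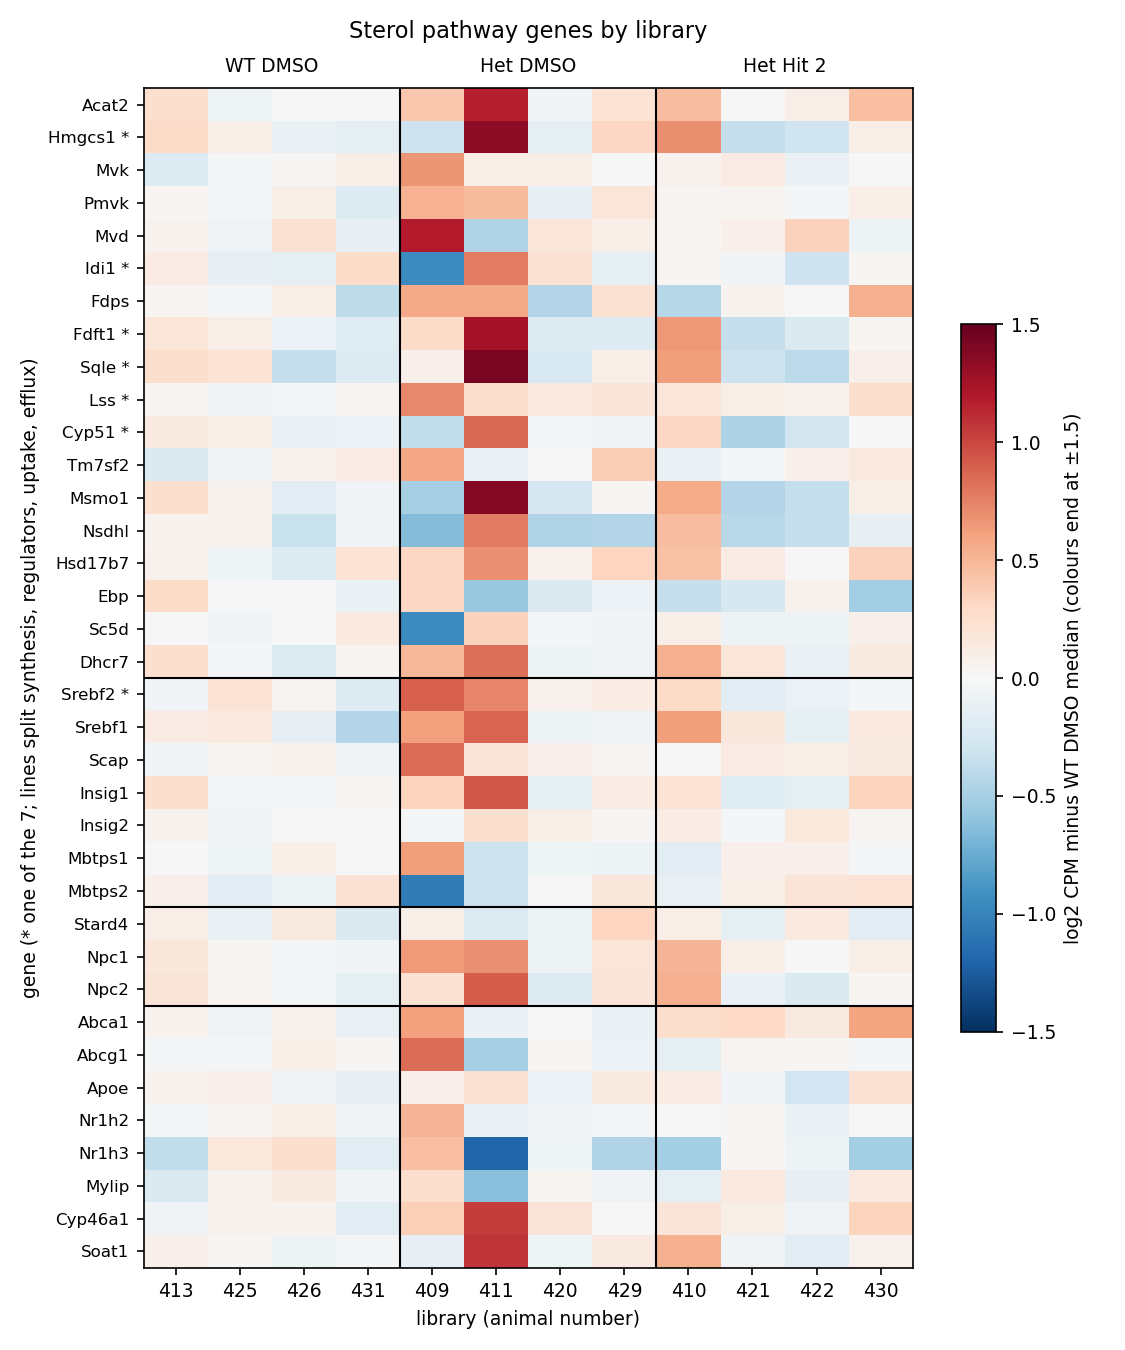
Heat map of 36 sterol pathway genes in the 12 libraries. Columns are libraries by animal number, rows are genes in 4 classes split by lines, and colour is log2 CPM minus the WT DMSO median, ending at 1.5 in either direction. Columns 409 and 411 hold the strongest colours, such as 1.42 for Sqle in 411 and -0.96 for Idi1 in 409.

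Among the 20 synthesis genes, 17 had values above 0 in Het DMSO against WT DMSO, beside 55.8% of all genes. The same count over the whole list depended on libraries 409 and 411. Dhcr7, which makes cholesterol from 7-dehydrocholesterol, differed by 0.33 (SE 0.22) in Het DMSO against WT DMSO and by -0.14 in Het Hit 2 against Het DMSO, and without library 411 by 0.15 and 0.020. Hsd17b7, a sterol ketone reductase (0.36), Pmvk, phosphomevalonate kinase (0.31), and Acat2, an acetyl-CoA thiolase (0.46), were among the 8 smallest p of Het DMSO against WT DMSO, with unadjusted p from 0.0524 to 0.0734. The level of Acat2 is less certain, since 65.6% of its longest transcript matches transcripts of Acat3 and Tcp1 at 97% identity or more. Without library 411 the value of Acat2 was 0.17, and without libraries 409 and 411 together Hsd17b7 stood at 0.19, Pmvk at 0.051, Acat2 at 0.033 and Dhcr7 at -0.094. Pmvk stood at -0.25 (SE 0.15) between the Het groups, and at -0.16 without library 409. Hsd17b7 (0.23, SE 0.17), Acat2 (0.22, SE 0.23) and Dhcr7 (0.19, SE 0.22) were among the 8 smallest p of Het Hit 2 against WT DMSO, none with an unadjusted p under 0.191, and without library 410 they stood at 0.15, 0.14 and 0.048. Ebp, a sterol isomerase, went the other way in Het Hit 2 against WT DMSO, at -0.30 (SE 0.19, adjusted p = 0.9999).

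Of the 7 regulators, Srebf2 among them, 6 had values above 0 in Het DMSO against WT DMSO, beside 55.8% of all genes. Srebf1, the relative of Srebf2 that serves fatty acid synthesis more, differed by 0.46 (SE 0.24), and its highest libraries were 411 (107 CPM), 410 (90.9 CPM) and 409 (90.1 CPM). Scap, the escort of SREBP2, differed by 0.31 (SE 0.16), with library 409 at 180 CPM and the other 11 libraries between 97.7 and 115 CPM. Insig1, which holds Scap in the endoplasmic reticulum, differed by 0.31 (SE 0.21), with library 411 at 99.7 CPM and the others between 45.9 and 65.7 CPM. Without library 411 the value of Srebf1 was 0.28 and that of Insig1 0.076, and without libraries 409 and 411 together Srebf1 stood at -0.018, Scap at 0.031 and Insig1 at -0.072. Between the Het groups Srebf1, Scap and Insig1 stood at -0.17, -0.23 and -0.30, and without libraries 409 and 411 together at 0.29, 0.039 and 0.069. Without library 409 alone the Scap values were 0.083 against WT DMSO and -0.0036 between the Het groups, and without library 411 alone Srebf1 and Insig1 stood at -0.0092 and -0.080 between the Het groups. In Het Hit 2 Srebf1 stood 0.28 (SE 0.24) above WT DMSO, and 0.11 without library 410. Scap and Insig1 stood at 0.081 (SE 0.16) and 0.0098 (SE 0.21) in Het Hit 2 against WT DMSO. Mbtps2, a protease that releases SREBP2, had a value above 0 between the Het groups, 0.33 (SE 0.22), and its lowest library was 409 at 13.8 CPM, without which the value was 0.14. Of the 10105 exon bases of Mbtps2, 2867 overlap another gene on the same strand. No adjusted p of these genes was under 0.616.

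In uptake and transport, 4 of the 5 listed genes were tested and all 4 had values above 0 in Het DMSO against WT DMSO, beside 55.8% of all genes. Npc1, which moves cholesterol out of lysosomes, differed by 0.36 (SE 0.18) there, by -0.21 (SE 0.18) in Het Hit 2 against Het DMSO and by 0.15 (SE 0.18) in Het Hit 2 against WT DMSO. Libraries 409 and 411 held the 2 highest values of Npc1, 141 and 145 CPM, and without both the first value was 0.015 and the second 0.13. Without library 410, at 128 CPM the highest of Het Hit 2, the Het Hit 2 against WT DMSO value was 0.022.

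In efflux and turnover, Abca1, the transporter that loads cholesterol onto apolipoproteins, had a value above 0 in Het Hit 2 against Het DMSO, where all members were below 0. It read 155, 145, 157 and 139 CPM in WT DMSO, 231, 140, 150 and 140 CPM in Het DMSO, and 180, 184, 164 and 226 CPM in Het Hit 2. All 4 Het Hit 2 libraries lay above all 4 WT DMSO libraries, and above Het DMSO libraries 411, 420 and 429 but below 409 (231 CPM). Against WT DMSO the log2 fold change of Het Hit 2 was 0.34 (SE 0.17, unadjusted p = 0.0698, adjusted p = 0.9999, exact permutation p = 0.0286). Het Hit 2 against Het DMSO gave 0.19 (SE 0.17), and Het DMSO against WT DMSO gave 0.15 (SE 0.17), and without library 409 these were 0.40 and -0.065. Without libraries 409 and 411, Het Hit 2 stood 0.33 above WT DMSO (SE 0.092, unadjusted p = 0.00512, adjusted p = 0.209) and 0.38 above the 2 remaining Het DMSO libraries (SE 0.11, unadjusted p = 0.00806, adjusted p = 0.985). Abca1 and Lss were the 2 of 39 pathway genes with no overlap between Het Hit 2 and WT DMSO, both higher, beside 2.90% of all genes. Cyp46a1, a neuronal enzyme that turns cholesterol into 24-hydroxycholesterol for export from the brain, differed by 0.48 in Het DMSO against WT DMSO (SE 0.20, unadjusted p = 0.0335, adjusted p = 0.616), with library 411 at 68.4 CPM and the others between 29.5 and 42.1 CPM, and by -0.31 (SE 0.20) between the Het groups. Without library 411 these values were 0.23 (unadjusted p = 0.109) and -0.071. In Het Hit 2 against WT DMSO Cyp46a1 stood at 0.17 (SE 0.20). Apoe, the main apolipoprotein of the brain, differed by 0.10 (SE 0.14), -0.080 (SE 0.14) and 0.021 (SE 0.14) in the 3 comparisons, and its levels lay between 433 and 622 CPM.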

How the data were processed

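RNA was sequenced from 12 samples labelled cerebellum, 1 library per mouse, and the marker levels of library 411 go against that label. Strand-specific libraries came from 500 ng of rRNA-depleted RNA after 13 PCR cycles, and paired reads of 100 bases were taken, per the labels' protocols. The submitters' processing notes name STAR 2.7.10a, FastQC 0.11.9 and the genome build GRCm39 (mm39). The annotation release and any trimming are not given in the sources used here. The deposited tables hold whole-number read counts per gene, which the authors did not normalize. Each table opens with 4 rows of reads assigned to no gene, among them reads without a gene (44.7% to 54.6% of a library), and these rows stayed out of library sizes and tests.

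Counts of the strand opposite to the first read were used, since 5.21% to 6.47% of gene reads lay on the other. Symbols, exon lengths and G+C content came from GENCODE M21 on GRCm38, another build, which matched 55141 of 55401 identifiers. edgeR 4.0.16 in R 4.3.3 was run with filterByExpr, TMM factors and 1 quasi-likelihood fit over the 12 libraries, tests were two-sided, and p-values were adjusted by Benjamini-Hochberg over 19378 genes. CPM uses TMM-scaled library sizes, and log2 CPM a prior count of 2. Exact two-sided permutation tests of log2 CPM used the 70 assignments of 8 libraries to 2 groups. The labels tie each library to a numbered animal, so replicates are mice.

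The 7 genes and all lists were chosen with earlier results of these data known. Named besides the 7 were 10 pathway genes in every comparison, the 8 of the list with the smallest p per comparison, and the 5 genes most like the members, except a few that are not reported here. The fit was tested on simulated counts. Alternatives were DESeq2 1.42.0, limma 3.58.1 voom with library weights, RLE factors, unstranded counts, robust quasi-likelihood, only the groups compared, other filters (none, or 50 reads on average), a term for Xist, libraries under 30000000 gene reads, leaving out each library, and leaving out 409 with 411 or, chosen after seeing the data, 410 with 411.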

Additional observations from a re-analysis of the deposited data

Results flagged for a closer look

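In groups of 4, a library was singled out when its gap to the nearest other library was a large share of the group's range (Dixon's criterion at 95%), and 6 of 42 such checks did so, where chance gives about 1 in 20. Sqle in Het DMSO library 411 was at 50.5 CPM, against 20.2 CPM in the next library. Lss in Het DMSO library 409 was at 81.7 CPM, against 59.3 CPM in the next. In library 411 the Purkinje cell list scored -4.03 (next -0.27), the granule cell list -6.74 (next -0.01) and the astroglia list -1.30 (next -0.03). The red blood cell list scored 1.88 in WT DMSO library 431, against -0.76 in the next.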

How the results depend on the processing

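None of 504 recomputed values of the 7 genes passed the threshold; 455 kept their sign and 49 changed it. Main values stand in the report, log2 values follow, and the causes of the changes were not tested. Fits with fewer libraries show only how far a value depends on the libraries left out. For Het DMSO against WT DMSO, voom weights gave -0.16 for Fdft1 and -0.020 for Cyp51, and an Xist term -0.11 for Idi1. Without libraries 409 and 411 the values were -0.062 (Sqle), -0.0053 (Idi1), -0.22 (Fdft1) and -0.054 (Cyp51). Without 410 and 411 they were -0.052 (Hmgcs1), -0.27 (Idi1), -0.011 (Fdft1) and -0.14 (Cyp51). Leaving out each library gave -0.052 to 0.59 for Hmgcs1, -0.27 to 0.28 for Idi1, -0.012 to 0.56 for Fdft1 and -0.14 to 0.31 for Cyp51. For Het Hit 2 against Het DMSO, leaving out 409 and 411 gave 0.10 (Sqle) and 0.28 (Fdft1), and 410 and 411 gave 0.11 (Idi1). Leaving out each library gave -0.63 to 0.094 for Hmgcs1, -0.70 to 0.033 for Sqle, -0.40 to 0.14 for Idi1, -0.59 to 0.071 for Fdft1 and -0.42 to 0.036 for Cyp51. For Het Hit 2 against WT DMSO, Srebf2 was at -0.0099 with DESeq2, -0.0098 with RLE factors, -0.019 with no filter and -0.020 with unstranded counts. It was at -0.011 without 409 and 411. Voom weights gave -0.19 (Hmgcs1), -0.17 (Sqle), -0.17 (Fdft1) and -0.12 (Srebf2). Leaving out 410 and 411 gave -0.22, -0.21, -0.19 and -0.11 for the same genes. Leaving out each library gave -0.22 to 0.18 (Hmgcs1), -0.20 to 0.18 (Sqle), -0.19 to 0.19 (Fdft1), -0.11 to 0.074 (Srebf2) and -0.25 to 0.022 (Cyp51).

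Genes called for Het DMSO against WT DMSO (1) numbered 43 with DESeq2, 0 with only the groups compared (714 at an unadjusted p under 0.05), 98 with voom weights, 20 without 409 and 411, 0 in libraries under 30000000 gene reads (524 unadjusted) and 13 without 410 and 411, and 1 to 9 with each library left out. For Het Hit 2 against WT DMSO (1) they numbered 24 with DESeq2, 4 with no filter, 2 with unstranded counts, 50 with only the groups compared, 221 with voom weights, 0 with an Xist term (170 unadjusted), 96 without 409 and 411, 0 in those libraries (316 unadjusted) and 11 without 410 and 411, and 0 to 14 with each library left out. Het Hit 2 against Het DMSO had 0 in all 24. No paired analysis was possible because animal numbers do not recur between groups.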
